A study of Mus musculus with 42 samples.

Results

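Treg, the regulatory CD4 T cells, and Tconv, the conventional ones, were sorted from the mesenteric lymph node and compared in 10 bulk RNA libraries, 5 of Treg and 5 of Tconv, out of 42 libraries in the whole series. They were chosen by their labelled tissue and cell type. The Treg libraries came from 2 samples of TNFdARE mice (experiments B and C) and 3 of WT littermates (experiments A, B and C), and the Tconv libraries came from the same experiments and genotypes. TNFdARE mice carry a Tnf gene without the AU-rich element that destabilises its transcript. All mice, WT included, carried the DEREG transgene, in which Foxp3 regulatory sequence drives a green fluorescent protein joined to a diphtheria toxin receptor, and cells were sorted by that fluorescence. Ages, sexes and the number of mice behind a library are not given in the sources used here. The question was which genes separate the cell types in the node that drains the ileum, and whether that separation differed between genotypes. It was also compared with the joint nodes (inguinal and popliteal, 12 libraries). Those held 3 TNFdARE and 3 WT libraries of each cell type, from experiments A, B and C. The mesenteric TNFdARE groups lack experiment A, so neither the nodes nor the mesenteric genotypes are balanced by experiment.

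Treg restrain other T cells, and the transcription factor Foxp3 holds their identity. They depend on interleukin-2 made by other T cells, which they bind through the high-affinity receptor chain Il2ra (CD25), and they act through the checkpoint receptor Ctla4, the cytokine Il10, the TGF-beta docking protein Lrrc32 (GARP) and the adenosine-making ectoenzymes Entpd1 (CD39) and Nt5e (CD73). Tconv of a lymph node are largely naive cells that recirculate, kept in that state by factors such as Tcf7, Lef1, Klf2 and Satb1. The mesenteric node is where T cells acquire receptors that direct them to the intestine.

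Total counts lay between 18733723 and 30301202 per library, and 17560 to 21065 genes had at least 1 count. Log2 values of libraries correlated at r between 0.975 and 0.982 within a group, between 0.965 and 0.976 across genotypes within a cell type, and between 0.914 and 0.955 between Treg and Tconv (across genes, which are not independent replicates). The first principal component held 54.1% of the variance and separated the cell types. Counts of the 98 ribosomal protein genes made up 1.74 to 2.21% of Treg libraries and 2.79 to 3.14% of Tconv libraries. Of the markers of other cells, in CPM (counts scaled to a common library total), the B cell list summed to 1020 to 2140 CPM in Treg and 611 to 727 CPM in Tconv. Most of that sum was Ighm, which rose 2.33-fold. Cd79b, a chain of the B cell receptor complex, had 17.9 to 34.2 CPM in Treg and 0.274 to 3.17 CPM in Tconv and rose 13.8-fold (adjusted p = 1.8e-05, edgeR). Of 3 B cell genes tested these 2 rose, with no overlap between cell types, while Ms4a1, Pax5 and Ebf1 were too low to test, with at most 16 counts in any library. The plasma cell list summed to 208 to 240 CPM in Treg and 107 to 144 CPM in Tconv. Of its 4 genes tested only Xbp1 passed, and rose, while the list median log2 fold change was -0.16. The myeloid list summed to 10.1 to 21.1 CPM in Treg and 9.99 to 17 CPM in Tconv, and the stromal list to 110 to 213 CPM and 225 to 271 CPM. Of 2 stromal genes tested Col1a1 rose and Pecam1 fell. The epithelial marker Epcam had 19.6 to 25.8 CPM in Treg and 3.24 to 6.07 CPM in Tconv. The CD4 T cell list summed to 5180 to 6150 CPM in Treg and 6500 to 6900 CPM in Tconv. The part of these other cells in the results was not tested. In bulk libraries, fewer expressing cells and less RNA per cell cannot be told apart.

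Foxp3 (ENSMUSG00000039521, chromosome X, 7573644 to 7595245 in GRCm38) checks the sort, because its regulatory sequence drives the reporter. It had 1190 and 1160 CPM in TNFdARE Treg (B and C) and 1090, 967 and 983 CPM in WT Treg (A, B and C), against 22 and 36.8 CPM in TNFdARE Tconv and 7.37, 6.46 and 6.66 CPM in WT Tconv. Every Treg library stood far above every Tconv library. CPM of single genes here use the TMM-scaled library size, and per-library values keep this order throughout: TNFdARE B and C, then WT A, B and C.

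Across all genes, with both genotypes weighted equally, 5720 of 14820 genes tested differed between Treg and Tconv (edgeR quasi-likelihood test, Benjamini-Hochberg adjusted p below 0.05), which is 38.6%; with all 42 libraries in the fit 2437 differed. Of all genes tested, 20.8% were higher in Treg and 17.8% lower, and the median log2 fold change was 0.02. These shares are the background for every list below: a list with similar shares does not stand apart. Changes shown to exceed 2-fold (a test against that fold) were found for 7.36% of genes, 5.82% higher and 1.54% lower. All 5 Treg libraries lay above all 5 Tconv libraries for 13.4% of genes, and below them for 12.7%.

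The 12 genes that the naming rule picked as most raised in Treg include surface and secreted molecules of the lineage. Lrrc32 (chromosome 7, 98489283 to 98502181), which docks latent TGF-beta on the cell surface, had 264, 358, 420, 425 and 463 CPM in Treg, against 2.89, 5.4, 0.963, 0.176 and 0.353 CPM in Tconv. Its log2 fold change was 8.00 ± 0.25 (SE, n = 5 each, adjusted p = 6.9e-10), or 256-fold. Il2ra (chromosome 2, 11642807 to 11693193) had 727, 786, 919, 881 and 964 CPM in Treg, against 22.4, 21.6, 12.4, 8.93 and 13.8 CPM in Tconv, a log2 fold change of 5.70 ± 0.12 (adjusted p = 1.2e-10). Foxp3 followed at 6.27 ± 0.15. In each of the 3, no Tconv library came near the lowest Treg library, and the TNFdARE Tconv were the highest Tconv.

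Gbp2b (chromosome 3), a guanylate-binding GTPase of the interferon-induced family, had 208, 203, 129, 104 and 131 CPM in Treg, against 1.79, 1.49, 0.628, 0.176 and 0.0392 CPM in Tconv (log2 fold change 7.85 ± 0.22, adjusted p = 3.6e-10). Il10 (chromosome 1), the suppressive cytokine, had 151, 38.5, 55.8, 38.6 and 24.9 CPM in Treg, against 1.71, 2.78, 1.55, 0.484 and 0.509 CPM in Tconv (5.48 ± 0.46, adjusted p = 2e-06). Its Treg libraries varied several-fold among themselves, with TNFdARE B the highest. Non-overlap of the cell types was a condition of the rule that named these genes and the most lowered ones. The lectin-like inhibitory receptor Klrg1 (42.6-fold), the STAT5-induced feedback inhibitor Socs2 (58.2-fold), the proteoglycan Sdc4 (53.8-fold), the scavenger receptor Stab1 (73.6-fold), the matrix protein Matn2 (34.6-fold) and the adhesion molecule Dscam (33-fold) were also raised. For Stab1, scaled with the joint node libraries, TNFdARE Treg had 89.9 and 56.4 CPM and WT Treg 3.95 to 4.13 CPM. Its Tconv had 2.38 and 3.2 CPM in TNFdARE and 0 to 0.0396 CPM in WT. Hbegf, a growth factor of the EGF family, was 96-fold higher, with 24.4 to 31.9 CPM in Treg and 0 to 0.892 CPM in Tconv. The diphtheria toxin receptor of the transgene is a primate form of the same protein, and whether its reads were counted at the mouse gene was not tested.

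**Figure D1:**
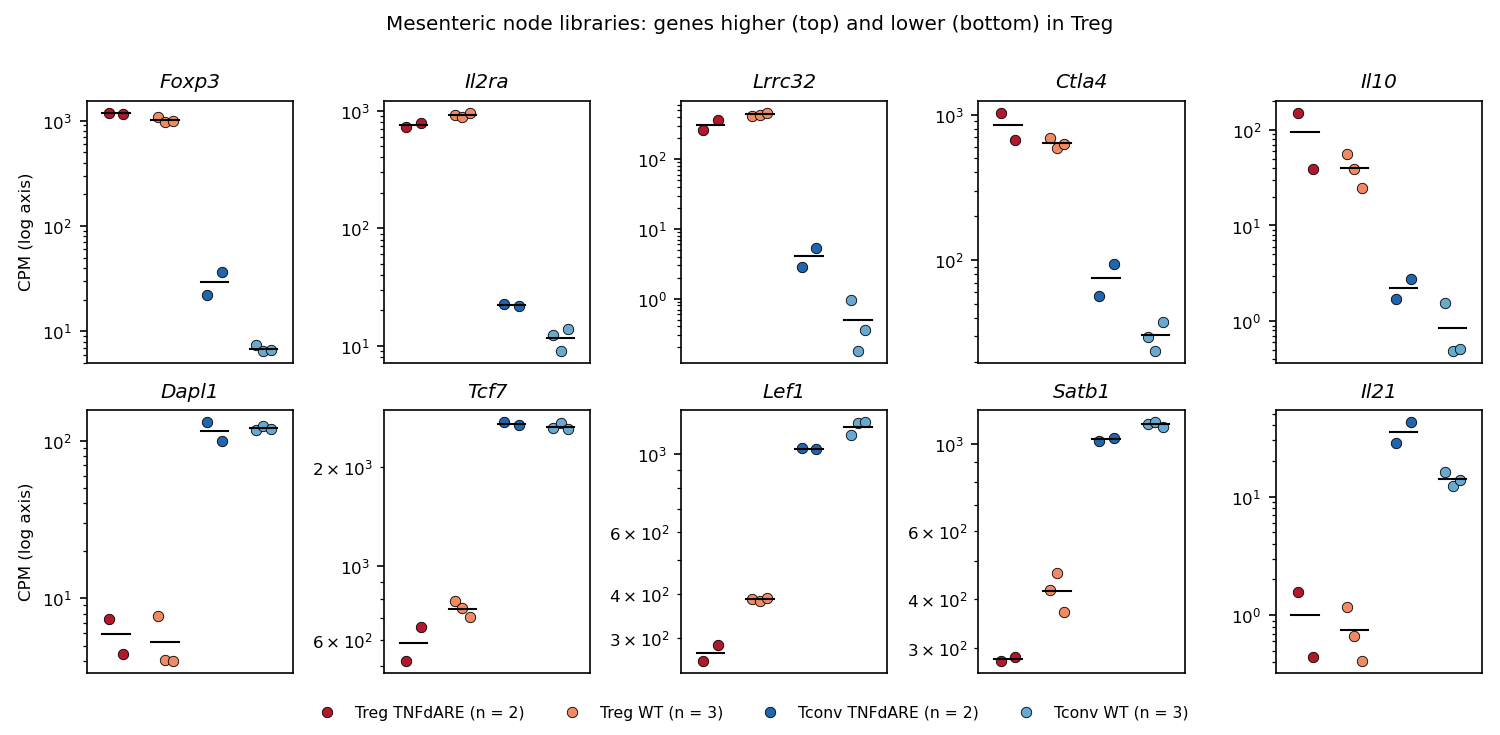
CPM per library on log axes for 5 genes higher in Treg (top row) and 5 lower in Treg (bottom row) in the mesenteric node; points are libraries, bars are group means, and groups run from TNFdARE Treg (n = 2) and WT Treg (n = 3) to TNFdARE Tconv (n = 2) and WT Tconv (n = 3). In all 10 genes the 5 Treg libraries do not overlap with the 5 Tconv libraries, and for Foxp3, Il2ra, Lrrc32 and Ctla4 the TNFdARE Tconv lie above the WT Tconv.

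Among the most lowered genes, Pdlim4 (chromosome 11), a LIM-domain protein of the cytoskeleton, had 0.676, 1.07, 0.122, 0.476 and 0.667 CPM in Treg, against 80.8, 53.9, 69.9, 73.7 and 71.8 CPM in Tconv (log2 fold change -6.85 ± 0.23, adjusted p = 1.5e-09). Il21 (chromosome 3), the helper cytokine that acts on B cells, had 1.56, 0.447, 1.18, 0.666 and 0.411 CPM in Treg, against 28.1, 42.4, 16, 12.4 and 13.7 CPM in Tconv (-4.65 ± 0.32, adjusted p = 3.4e-07). Pde3b, a phosphodiesterase that breaks down cyclic AMP, was 24.9-fold lower, with 5.24 to 16.3 CPM in Treg and 216 to 287 CPM in Tconv. The gamma-glutamyltransferase Ggt5 (73.1-fold), the phospholipid-transporting ATPase Atp8b4 (35.6-fold), the amyloid precursor protein App (34.3-fold), the monocarboxylate transporter Slc16a5 (19.3-fold), Lypd6b (19.2-fold), Mctp2 (17-fold), the receptor for vasoactive intestinal peptide Vipr1 (16.5-fold) and the nucleotide-adding enzyme Dntt (12.4-fold) were lower as well. Dntt is best known from developing lymphocytes, and had 0.625 to 3.89 CPM in Treg and 14.7 to 21.7 CPM in Tconv.

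All 18 genes of the Treg identity list rose, each by more than 2-fold in the test against that fold, with a median log2 fold change of 3.84 beside 0.02 over all genes. Foxp3 is the sort gene and belongs to this list, so its direction was fixed by the gate. Among the transcription factors, Ikzf2 (Helios) had 286, 333, 287, 394 and 437 CPM in Treg, against 17.6, 44.4, 10, 7.43 and 14.4 CPM in Tconv, and rose 18.7-fold. Its relative Ikzf4 (Eos) rose 9.32-fold. Among the receptors, Ctla4 had 1030, 673, 689, 588 and 625 CPM in Treg, against 56.5, 94, 29.7, 23.6 and 37.7 CPM in Tconv (15.4-fold, adjusted p = 1.8e-08). Nrp1 rose 16.7-fold, Tnfrsf4 (OX40) 10.4-fold and the folate receptor family member Izumo1r 2.95-fold, the least of the list. Izumo1r was also the member with the highest Tconv level relative to Treg, at 547 to 739 CPM in Treg and 167 to 281 CPM in Tconv.

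**Figure D2:**
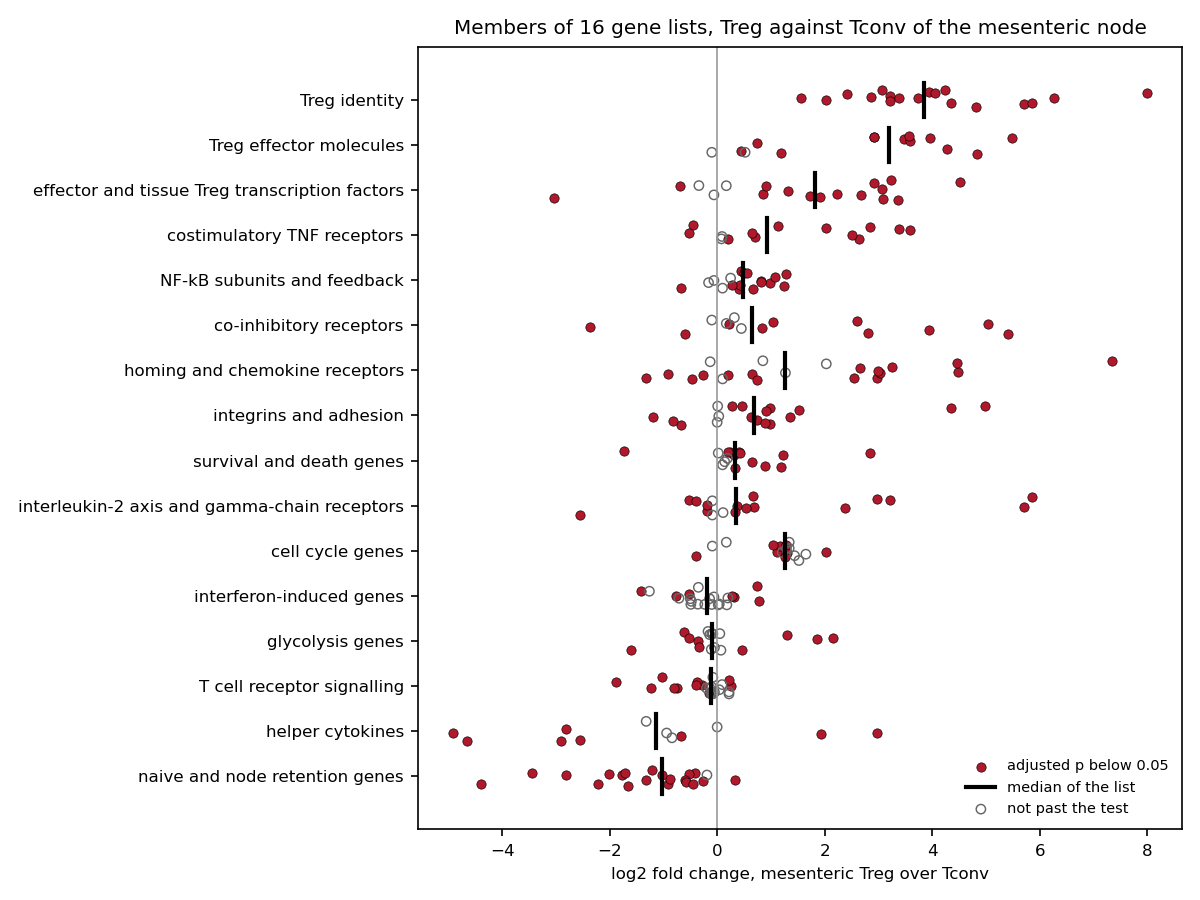
Log2 fold change of Treg over Tconv in the mesenteric node (horizontal axis) for the tested members of 16 gene lists (rows); filled points passed an adjusted p of 0.05, open points did not, and black bars are list medians. The Treg identity list lies wholly to the right with a median of 3.84, and 19 of 21 naive and node retention genes lie to the left with a filled point.

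Of 14 tested Treg effector molecules 12 rose, 9 beyond 2-fold, and none fell; the list median was 3.19. The suppressive fibrinogen-like protein Fgl2 had 344, 185, 87.4, 70.2 and 64.8 CPM in Treg, against 14.4, 19.7, 1.51, 1.36 and 1.37 CPM in Tconv (28.5-fold, adjusted p = 5.8e-09). The cytotoxic protease Gzmb had 175, 86.1, 18.3, 13 and 11.8 CPM in Treg, against 4.81, 8.18, 0.503, 0.396 and 1.33 CPM in Tconv (19.5-fold). For both genes TNFdARE libraries were the highest within each cell type. The fold between cell types was 15.5 in TNFdARE and 52.2 in WT for Fgl2, and 20.2 in TNFdARE and 18.8 in WT for Gzmb; neither difference passed the test between genotypes (adjusted p = 0.12 for Fgl2 and 1 for Gzmb). The enkephalin precursor Penk rose 7.53-fold, the decoy receptor Il1r2 11.8-fold, the interleukin-1 antagonist Il1rn 15.5-fold, the repair factor Areg 12.1-fold and the PD-1 ligand Pdcd1lg2 7.51-fold. Il1r2 overlapped between cell types across genotypes, at 19.3 CPM in the lowest WT Treg and 27.3 CPM in the highest TNFdARE Tconv. Tgfb1 rose 1.36-fold (adjusted p = 0.006), with overlapping libraries. Gzma (log2 fold change 0.52 ± 0.44, adjusted p = 0.38) and Il18bp (-0.10 ± 0.15, adjusted p = 0.67) did not pass. Il12a, which pairs with Ebi3 in interleukin-35, had no count in any of the 10 libraries, which allows up to 3 counts per library; Ebi3 itself rose 11.1-fold.

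Of 18 transcription factors of effector and tissue Treg, 13 rose and 2 fell, with a median of 1.81. The homeodomain-only protein Hopx had 240, 193, 163, 152 and 141 CPM in Treg, against 34.9, 27.5, 18.9, 19 and 18.3 CPM in Tconv (7.51-fold, adjusted p = 7.4e-10). Nfil3 rose 10.4-fold, Prdm1 (Blimp-1) 8.53-fold and the aryl hydrocarbon receptor Ahr 8.36-fold. Epas1 (HIF-2 alpha) fell 8.24-fold and Bcl6, the factor of follicular helper cells, 1.61-fold. Tbx21, Id2 and Myb did not pass, with log2 fold changes of -0.06 ± 0.21, -0.34 ± 0.15 and 0.17 ± 0.10. In the list of Ikaros and FOX family members and their partners, 6 of 16 rose and 6 fell. Gata1, best known as an erythroid factor, had 31.3 to 59.3 CPM in Treg and 8.46 to 17.4 CPM in Tconv (3.24-fold, adjusted p = 1.2e-06), while no more than 16 counts of any globin gene were found in a library. Ikzf1 (Ikaros) fell 2.2-fold and Satb1, a chromatin organiser, 3.15-fold.

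Of 14 tested receptors of the TNF family, which bind TNF and its relatives, 10 rose, 6 of them beyond 2-fold, and 2 fell. Tnfrsf1b (TNF receptor 2) had 1500, 950, 690, 568 and 599 CPM in Treg, against 165, 165, 124, 112 and 120 CPM in Tconv (6.21-fold, adjusted p = 9.5e-09). Tnfrsf1a (TNF receptor 1) moved the other way, with 38.6 to 44.3 CPM in Treg and 47.6 to 62.8 CPM in Tconv, a fall of 1.36-fold (adjusted p = 0.00027). Tnfrsf9 (4-1BB) rose 5.71-fold, Tnfrsf8 (CD30) 11.9-fold and Tnfrsf18 (GITR) 4.07-fold. Of the ligands, 5 of 12 rose and 3 fell. Cd40lg, the helper signal to B cells and dendritic cells, had 14.2, 10.9, 29, 19.7 and 21.4 CPM in Treg, against 134, 121, 171, 175 and 140 CPM in Tconv (8.39-fold lower, adjusted p = 5.8e-09), and Fasl was 3.35-fold lower. Tnfsf11 (RANKL) and Tnfsf10 (TRAIL) rose 2.42-fold and 2.26-fold. Of 18 NF-kB subunits and feedback genes 13 rose and 1 fell, and none passed the test against 2-fold. By estimate Traf1 rose 2.11-fold, Rel 1.99-fold and Nfkb2 1.76-fold, and the kinase Map3k14 fell 1.59-fold.

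Among co-inhibitory receptors 8 of 14 rose and 2 fell. Besides Ctla4 and Klrg1, Havcr2 (TIM-3) rose 32.7-fold, at 9.19 to 67.1 CPM in Treg and 0 to 1.66 CPM in Tconv, and Lag3 rose 6.99-fold and Tigit 6.07-fold. Lair1, a collagen receptor, fell 5.12-fold, and Btla fell 1.51-fold. In the TGF-beta axis 8 of 15 rose and 4 fell. The members that present or activate the cytokine rose, namely Lrrc32, the integrin chains Itgb8 (20.2-fold) and Itgav (2.87-fold), and the convertase Furin (2.55-fold). Its receptors divided: Tgfbr1 rose 4.44-fold, Tgfbr2 fell 2-fold, and the co-receptor Tgfbr3 had 13.9, 8.71, 25, 28.3 and 25.4 CPM in Treg, against 126, 107, 167, 168 and 168 CPM in Tconv (8.12-fold lower, adjusted p = 2.6e-09). Of 9 adenosine pathway genes 7 rose and 1 fell. Entpd1 rose 28.2-fold, Nt5e 5.35-fold, the ATP-gated channel P2rx7 2.87-fold and the adenosine receptor Adora2a 2.03-fold, and adenosine kinase Adk fell 1.57-fold.

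In the interleukin-2 axis 10 of 18 rose and 5 fell; the number that fell was 2 without TNFdARE Treg B and 3 without TNFdARE Tconv B. Il2 itself had 0.423, 0.536, 0.243, 0.444 and 0.513 CPM in Treg, against 2.97, 4.21, 1.68, 1.98 and 1.96 CPM in Tconv (5.88-fold lower, adjusted p = 4.9e-05). Il2rb, which signals for interleukin-2 and interleukin-15, rose 9.32-fold. The shared chain Il2rg did not pass (log2 fold change -0.09 ± 0.08, adjusted p = 0.44). The STAT5 feedback genes Cish and Socs2 rose 7.89-fold and 58.2-fold, and the kinase Pim1 rose 5.2-fold. Il7r had 718 and 965 CPM in TNFdARE Treg and 246, 216 and 296 CPM in WT Treg, against 568 and 1010 CPM in TNFdARE Tconv and 542, 548 and 603 CPM in WT Tconv. The WT Treg lay below all Tconv, while the TNFdARE Treg did not. Of 20 receptors of the interleukin-1 family and of other cytokines 12 rose and 5 fell (3 without TNFdARE Tconv B). Il1rl1 (ST2, the interleukin-33 receptor) rose 32.1-fold, Il12rb1 7.12-fold and Il10ra 4.94-fold. Il1rl2, the receptor of interleukin-36, had 1.85 to 3.97 CPM in Treg and 23.6 to 29.8 CPM in Tconv (9.45-fold lower, adjusted p = 1.4e-07).

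Helper cytokine genes were low in both cell types: of 19, 7 were too low to test, and Il9 and Il13 had no count in any library. Of the 12 tested, 2 rose and 6 fell. Csf1 rose 7.86-fold and Lif 3.81-fold. Besides Il21 and Il2, the interleukin-17 gene Il17f fell, at 0 to 0.211 CPM in Treg and 0.22 to 2.36 CPM in Tconv (adjusted p = 0.0043). Of 16 follicular helper genes 9 rose and 3 fell. Icos rose 3.55-fold and the secreted glycoprotein Angptl2 5.32-fold, while Il21 and Bcl6 fell.

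Of 21 homing and chemokine receptors 13 rose and 4 fell, with a median of 1.27. Ccr2, the receptor for CCL2, had 651, 368, 129, 113 and 97.7 CPM in Treg, against 16.9, 26.8, 6.03, 4.4 and 5.52 CPM in Tconv (22.3-fold, adjusted p = 8.7e-09). Gpr15, which guides T cells to the colon, rose 22.2-fold, Ccr8 6.29-fold, Ccr4 8.09-fold, Ccr6 7.95-fold and Ccr9, the receptor for the small-intestinal chemokine CCL25, 5.86-fold. Of the receptors for node entry and exit, Ccr7 had 300, 403, 517, 482 and 489 CPM in Treg, against 1050, 991, 1060, 1150 and 1030 CPM in Tconv (2.51-fold lower), and S1pr1 fell 1.88-fold. Of 18 integrin and adhesion genes 12 rose and 3 fell. Itgae (CD103), which binds E-cadherin, had 1300, 1010, 340, 240 and 352 CPM in Treg, against 34.1, 50.3, 9.72, 7.47 and 8.27 CPM in Tconv (31.7-fold, adjusted p = 1.4e-09). Itgb3 fell 2.3-fold, and the gut integrin chain Itgb7 did not pass (adjusted p = 1).

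Of 21 naive and node retention genes 19 fell, 10 beyond 2-fold, and 1 rose; the list median was -1.03. Dapl1 (chromosome 2, 59484653 to 59505020), which marks naive T cells, had 7.44, 4.42, 7.75, 4.03 and 4 CPM in Treg, against 131, 99, 117, 124 and 118 CPM in Tconv (-4.39 ± 0.20, adjusted p = 1.2e-08). Tcf7 (TCF-1) had 519, 658, 786, 749 and 705 CPM in Treg, against 2720, 2670, 2610, 2710 and 2590 CPM in Tconv (4.02-fold lower). Its partner Lef1 had 259, 288, 389, 382 and 390 CPM in Treg, against 1040, 1030, 1130, 1220 and 1230 CPM in Tconv (3.42-fold lower). In Tcf7 and Lef1 alike TNFdARE Treg were the lowest libraries. Tdrp fell 10.9-fold, Igfbp4, which binds insulin-like growth factors, 7.03-fold, Als2cl 4.65-fold and the actin cross-linker Actn1 3.27-fold. Klf2 fell 1.34-fold with overlapping libraries, Foxp1 did not pass (-0.19 ± 0.08, adjusted p = 0.082), and Klf3 was the member that rose (1.26-fold), a call lost without TNFdARE Treg C or TNFdARE Tconv C.

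Promoter windows of 300 bases (250 before to 50 after the transcription start, RefSeq sequence, GRCm38.p6) were searched on both strands for the forkhead core TGTTTAC, the family motif of Foxp3 and the TCF and LEF core CTTTGAT. Windows were given for 10119 of 14818 tested gene symbols. The forkhead core was in 3.15% of all of them, in 4.3% of the 605 windowed genes raised beyond 2-fold and in 3.7% of the 162 lowered beyond 2-fold. None of the 12 windowed Treg identity genes held it, and 2 of the 16 windowed naive genes did. Those 2, Dapl1 and Tcf7, are among the genes described above, so their windows are shown, written along the gene's strand with the match to the forkhead core (here its reverse complement) in capitals. The Dapl1 window is chr2:59484403-59484702 on the plus strand and the Tcf7 window is chr11:52282546-52282845 on the minus strand.
Dapl1: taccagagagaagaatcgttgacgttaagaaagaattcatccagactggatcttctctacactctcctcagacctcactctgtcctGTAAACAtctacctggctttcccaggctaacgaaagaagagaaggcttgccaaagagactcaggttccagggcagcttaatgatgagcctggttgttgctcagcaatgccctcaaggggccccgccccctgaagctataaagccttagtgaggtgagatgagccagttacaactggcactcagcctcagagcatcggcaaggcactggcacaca
Tcf7: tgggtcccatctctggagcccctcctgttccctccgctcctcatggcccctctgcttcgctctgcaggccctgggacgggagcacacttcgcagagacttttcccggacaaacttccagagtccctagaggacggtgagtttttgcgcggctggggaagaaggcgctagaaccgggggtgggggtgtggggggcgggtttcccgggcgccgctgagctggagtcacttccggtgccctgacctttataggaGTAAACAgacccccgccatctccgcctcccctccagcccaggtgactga
A match is a run of letters and not a bound site. A single 10-letter form of the kappa B site, also searched on both strands, was in 0.237% of all windowed genes (24), 0.992% of those raised (6) and 0.0% of those lowered beyond 2-fold; its counts are small. The TCF and LEF core was in 3.02% of all windowed genes, 2.15% of those raised (13) and 4.94% of those lowered beyond 2-fold (8), again small counts. It was in 1 of the 12 windowed Treg identity genes (Ctla4) and in 0 of the 16 windowed naive genes.

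Of 23 T cell receptor signalling genes 9 fell, 2 rose (4 with either replicate block, and 0 to 3 without 1 library) and 12 did not pass, with a median of -0.11. Members that fell include Themis (3.7-fold), the Tec family kinase Txk (2.05-fold), and the diacylglycerol kinase Dgka (1.74-fold). Cd3e, Cd3d and Cd247 did not pass (adjusted p = 0.48, 0.11 and 0.28). Of 16 survival and death genes 11 rose and 1 fell; the pro-death Pmaip1 (Noxa) rose 7.16-fold, at 20.8 to 118 CPM in Treg and 2.22 to 17 CPM in Tconv, and the protective Bcl2l1 rose 2.27-fold.

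Of 20 activation and immediate early genes 6 rose, among them the MAP kinase phosphatases Dusp4 (13.8-fold) and Dusp5 (2.5-fold). Fos did not pass (1.18 ± 1.24, adjusted p = 0.5): it had 1140, 11.3, 603, 90.1 and 12.9 CPM in Treg, against 297, 13.2, 427, 73.5 and 12.3 CPM in Tconv, high in the libraries of experiment A and in the TNFdARE libraries of B, and low in every library of C. Of 18 cell cycle genes 8 rose and 1 fell with a median of 1.27, and no raised member separated all libraries; Mki67 had 47.9, 63.5, 19.7, 16.7 and 42.1 CPM in Treg, against 7.48, 23.3, 4.57, 2.46 and 9.99 CPM in Tconv (4.07-fold, adjusted p = 0.0017). The number of raised cell cycle genes was 4 without TNFdARE Treg C or TNFdARE Tconv B, 5 without WT Treg C, WT Tconv A or WT Tconv B, and at most 11 without any other 1 library. Of 22 interferon-induced genes 4 rose and 3 fell, and none separated all libraries. With the letter or the library pair as a replicate block, 11 or 13 immediate early genes rose, 15 cell cycle genes rose, and 8 or 10 interferon-induced genes fell. Without 1 library, 2 to 4 interferon-induced genes rose and 2 to 7 fell.

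Of the metabolic lists, cholesterol synthesis stayed near the background in its calls. Of the 17 glycolysis genes tested, all Treg libraries lay above all Tconv libraries in 3 and below them in 5. Over all genes these shares were 13.4% and 12.7%. In WT 4 glycolysis genes rose and 7 fell, beside 15.7% and 13.7% of all genes. The glycolysis list summed to 3640 to 4340 CPM in Treg and 4730 to 5050 CPM in Tconv. Of 17 glycolysis genes 4 rose and 5 fell, and of 16 cholesterol synthesis genes 4 rose and 4 fell (2 rose without TNFdARE Treg B or TNFdARE Tconv B).

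Within WT mice alone (3 Treg and 3 Tconv libraries) 4352 of 14820 genes differed, which is 29.4% (15.7% higher and 13.7% lower in Treg); with all 42 libraries in the fit 1432 differed. Within TNFdARE mice (2 and 2) 3284 differed, or 22.2%; that count was 2066 without the TNFdARE Treg library of experiment B, 1967 without its Tconv library, and 986 with all 42 libraries in the fit. The 2 contrasts share no library, but both come from the fit of the 10 mesenteric libraries. They share its filter, scaling and estimate of spread, so they are not independent tests. Fitted alone, the 6 WT libraries gave 4352 calls and the 4 TNFdARE libraries gave 2527. The overlap of calls between those separate fits was not tested. In the shared fit the contrasts had 2574 calls in the same direction in common. These are 59.1% of the WT calls and 78.4% of the TNFdARE calls. Another 3 calls were in opposite directions. In WT, Foxp3 differed by 7.21 ± 0.19, Il2ra by 6.30 ± 0.15, Lrrc32 by a log2 fold change of 9.76 and Dapl1 by -4.51. In TNFdARE the same genes differed by 5.32 ± 0.21, 5.10 ± 0.17, 6.24 and -4.27. All 18 identity genes rose in both genotypes, 16 naive genes fell in WT and 18 in TNFdARE. Of all 14820 genes, 1902 were higher and 1382 lower in Treg in TNFdARE, beside the WT shares above.

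The test of the difference between these contrasts called 31 of 14820 genes (0.209%), 11 with a higher Treg-Tconv log2 fold change in TNFdARE (0.0742%) and 20 with a lower one (0.135%). The pairing by experiment raised the count to 62 with the letter as block and 64 with the library pair. With all 42 libraries in the fit 3 genes were called, and of the genes named here Foxp3, Lrrc32 and Coro2a kept their calls (adjusted p = 0.0042, 0.0027 and 0.00014). The count was 7 and 47 without TNFdARE Treg B and C, 17, 6 and 16 without WT Treg A, B and C, 16 and 17 without TNFdARE Tconv B and C, and 17 and 12 without WT Tconv A and B. Foxp3, Coro2a, Sorcs2, Padi2 and Emb kept their calls without any 1 of the 10 libraries (adjusted p at most 0.035), and the other genes named here lost theirs in 3 to 9 of the 10 fits.

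Padi2, an enzyme that converts arginine to citrulline in proteins, had 34 and 27.9 CPM in TNFdARE Treg and 10.3, 10.5 and 11.7 CPM in WT Treg, against 25 and 32.3 CPM in TNFdARE Tconv and 40.6, 42.6 and 44.7 CPM in WT Tconv. It was lower in Treg than in Tconv in WT (-1.98) and not in TNFdARE (0.11), a difference of 2.10 ± 0.20 (adjusted p = 0.0018). Emb (embigin), a transmembrane glycoprotein, had 321 and 312 CPM in TNFdARE Treg and 153, 153 and 157 CPM in WT Treg, against 348 and 390 CPM in TNFdARE Tconv and 387, 400 and 415 CPM in WT Tconv (difference 1.15 ± 0.11, adjusted p = 0.0019). In both genes the WT Treg stood apart below the other 3 groups. Id2, an inhibitor of DNA binding by other factors, differed by 1.79 ± 0.30, with 414 and 233 CPM in TNFdARE Treg and 53.4 to 80.5 CPM in WT Treg, against 213 and 228 CPM in TNFdARE Tconv and 143 to 159 CPM in WT Tconv. The lysosomal protease Lgmn differed by 2.24 ± 0.32, and Trp53i13 and Fam234a by 1.14 ± 0.18 and 1.11 ± 0.19. Lgmn and Fam234a were high in TNFdARE Treg and similar in the other 3 groups. Il7r, described above, did not pass this test (1.25 ± 0.30, adjusted p = 0.17), nor did any gene of the naive list.

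**Figure D3:**
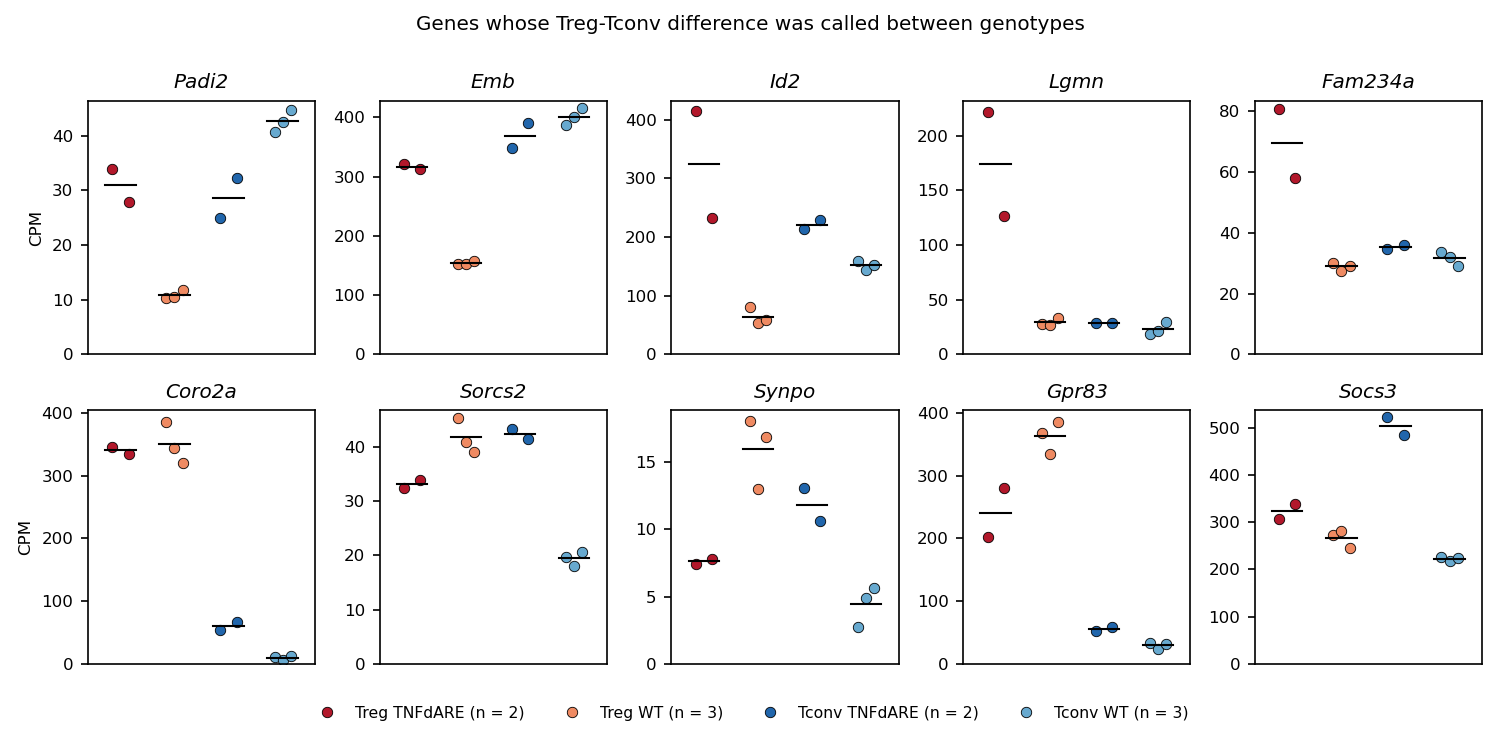
CPM per library for 10 genes whose Treg-Tconv difference was called between TNFdARE and WT, in TNFdARE Treg (n = 2), WT Treg (n = 3), TNFdARE Tconv (n = 2) and WT Tconv (n = 3); points are libraries and bars are group means. The top row has a higher log2 fold change in TNFdARE and the bottom row a lower one; Padi2 and Emb are lowest in WT Treg, and Coro2a and Socs3 differ mainly between the Tconv groups.

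Of the genes with the lower difference, Coro2a, a coronin that binds actin, had 345 and 335 CPM in TNFdARE Treg and 385, 344 and 320 CPM in WT Treg, against 53.8 and 67.4 CPM in TNFdARE Tconv and 10.8, 6.38 and 13 CPM in WT Tconv, a difference of -2.62 ± 0.29 (adjusted p = 0.0039). Its Treg libraries overlapped between genotypes and its Tconv libraries did not. Foxp3 differed by -1.89 ± 0.24 (adjusted p = 0.0098), Lrrc32 by -3.51 ± 0.48 (adjusted p = 0.019) and Il2ra by -1.19 ± 0.20 (adjusted p = 0.036), while Dapl1 did not pass (adjusted p = 0.96). Lrrc32 lost its call with voom weights (adjusted p = 0.09). Sorcs2, a receptor of the sortilin family, had 32.4 and 33.9 CPM in TNFdARE Treg and 45.4, 41 and 39.1 CPM in WT Treg, against 43.4 and 41.4 CPM in TNFdARE Tconv and 19.8, 18.1 and 20.6 CPM in WT Tconv (-1.46 ± 0.16). The actin-associated Synpo differed by -2.47 ± 0.39 and the receptor Gpr83 by -1.46 ± 0.22. Of the STAT feedback genes, Socs3 had 308 and 339 CPM in TNFdARE Treg and 246 to 282 CPM in WT Treg, against 522 and 485 CPM in TNFdARE Tconv and 217 to 226 CPM in WT Tconv (-0.90 ± 0.12).

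Across the identity list, 5 of 18 genes passed this test, all lower (Foxp3, Il2ra, Lrrc32, Gpr83 and Tnfrsf4), beside 0.135% of all genes. The difference was below 0 for all 18, beside 49.6% of all genes, and the members are not independent of each other. In every one of the 18 both TNFdARE Tconv libraries lay above all 3 WT Tconv libraries, which 14.3% of all genes did. The mean Tconv level as a percent of the mean Treg level was 2.5% in TNFdARE and 0.673% in WT for Foxp3, 1.33% and 0.114% for Lrrc32, 2.91% and 1.27% for Il2ra, 10% and 2.85% for Ikzf2, and 45% and 25.6% for Izumo1r. The gap between genotypes ran from 0.535 percentage points for Capg and 1.83 for Foxp3 to 14.5 for Gpr83 and 19.5 for Izumo1r. Each percent is taken of the Treg mean of its own genotype, so the gap also moves with the Treg level. For Gpr83 that mean was 241 CPM in TNFdARE and 363 CPM in WT. Treg among the sorted Tconv and expression by Tconv themselves cannot be told apart in these libraries.

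**Figure D4:**
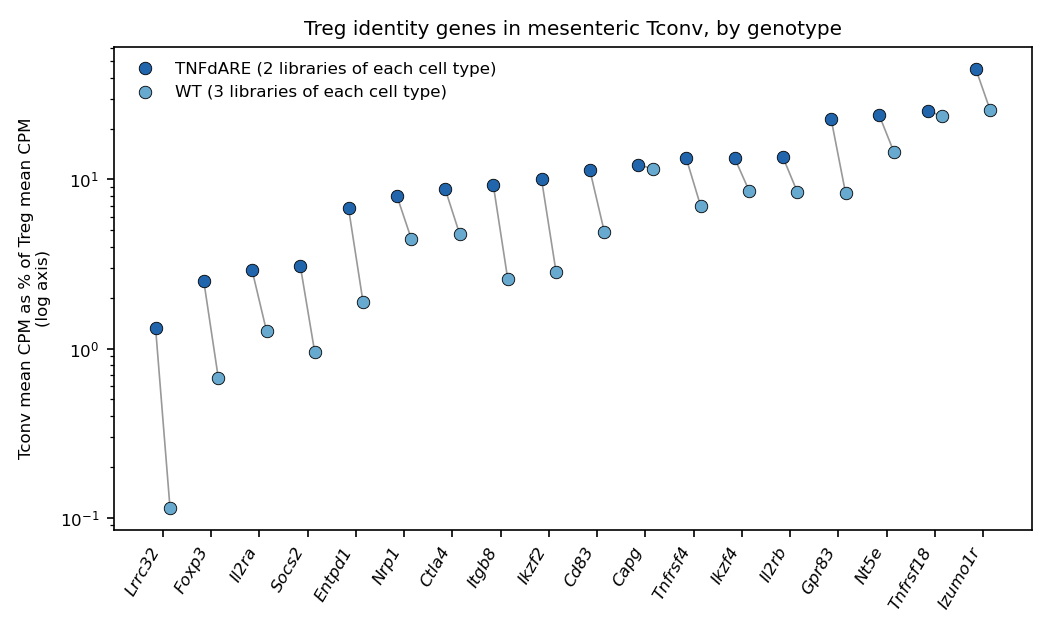
Mean CPM in Tconv as a percent of mean CPM in Treg (log axis) for the 18 Treg identity genes in the mesenteric node, in TNFdARE (2 libraries of each cell type) and WT (3 of each). Every gene has a higher percent in TNFdARE, from 1.33% against 0.114% for Lrrc32 to 45% against 25.6% for Izumo1r.

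The Treg-Tconv difference of the mesenteric node was set against that of the joint nodes in a fit of 22 libraries. Of 17108 genes tested 233 (1.36%) differed, 125 (0.731%) with a higher log2 fold change in the mesenteric node and 108 (0.631%) with a lower one. The count was 422 with the letter and 430 with the library pair as a replicate block, 21 with all 42 libraries in the fit, and 138 without the TNFdARE mesenteric Treg library of experiment B. Foxp3, Lrrc32 and Dapl1 did not pass, with differences of 0.05 ± 0.14, 0.43 ± 0.31 and 0.04 ± 0.21. Il2ra was 5.70 on the log2 scale in the mesenteric node and 6.28 in the joint nodes, a difference of -0.57 ± 0.12 (adjusted p = 0.015).

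Ccr9, the gut homing receptor described above, had 282 and 187 CPM in TNFdARE and 53.8, 47.1 and 70 CPM in WT mesenteric Treg, against 11.1 to 31.1 CPM in mesenteric Tconv. In the joint nodes it had 10.3 to 17.6 CPM in Treg, against 7.46 to 8.82 CPM in Tconv. The difference between nodes was 1.81 ± 0.21 on the log2 scale (adjusted p = 4.2e-05). Every mesenteric Treg library lay above every joint node library, and the 2 TNFdARE ones were the highest. Mmd (1.70 ± 0.16), Matn2 (2.11 ± 0.30), Marcks (1.75 ± 0.29), Laptm4b (1.73 ± 0.26) and Stab1 (4.55 ± 0.74) also had the higher difference in the mesenteric node. In all of them the TNFdARE mesenteric Treg libraries were the highest. Laptm4b had 155 and 99.8 CPM there and 15.8 to 20.4 CPM in WT, within the 8.11 to 21.1 CPM of joint node Treg. Mmd had 479 and 300 CPM in TNFdARE and 191 to 218 CPM in WT, Matn2 99.2 and 58.7 against 36.3 to 38.4, and Marcks 74 and 37.9 against 17.5 to 22.2. For these 3 the WT mesenteric Treg still lay above all joint node Treg. Stab1 lost its call with voom weights (adjusted p = 0.069) and without the WT joint node Tconv library of experiment C (0.061). In joint node Treg it had 7.31 to 10.8 CPM in TNFdARE and 0.132 to 0.404 CPM in WT, against 0 to 1.72 CPM in Tconv. In the homing list 4 genes were higher in this sense (Ccr9, Ccr2, Cxcr6 and Gpr183) and 1 lower (S1pr1). Cxcr6 had 175 and 83.2 CPM in TNFdARE and 14.3 to 22.3 CPM in WT mesenteric Treg, beside 10.5 to 20.5 CPM in joint node Treg. Ccr2 had 668 and 373 CPM in TNFdARE and 99.5 to 132 CPM in WT mesenteric Treg, beside 49.9 to 83.2 CPM. Among the effector transcription factors Nfil3 (1.49 ± 0.24) and Prdm1 (1.02 ± 0.21) were higher; the calls of Cxcr6 and S1pr1 were lost in 8 and 11 of the 22 fits without 1 library, and those of Ccr2 and Prdm1 in 2 each.

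In the other direction, Myb had 37.7 to 56.9 CPM in mesenteric Treg, against 34.6 to 48.7 CPM in mesenteric Tconv. In the joint nodes this regulator of effector Treg had 76.2 to 92.1 CPM in Treg, against 16.6 to 22.1 CPM in Tconv, a difference of -1.90 ± 0.13 (adjusted p = 3e-08). Its cell types overlapped in the mesenteric node and were far apart in the joint nodes. Ccl5 had a Treg-Tconv log2 fold change of -0.66 ± 0.20 in the mesenteric node and 1.41 ± 0.19 in the joint nodes. Il9r (-1.95 ± 0.28), the granule protein Nkg7 (-1.68 ± 0.13), the nuclear lamin Lmna (-1.63 ± 0.30), Synpo (-1.53 ± 0.28) and the Treg factor Irf4 (-1.33 ± 0.18) had the lower difference in the mesenteric node. In the interleukin-2 axis 6 of 18 genes did so and none the reverse: Il2ra, Il2rb, Cish, Socs1, Socs3 and Il9r. Il2rb had a difference of -0.94 ± 0.11, with 1360 to 1750 CPM in mesenteric and 1340 to 1640 CPM in joint node Treg. In Tconv it had 130 to 217 CPM in the mesenteric and 58.2 to 120 CPM in the joint nodes. Irf4 had 72.2 to 108 CPM in mesenteric and 65.5 to 85.9 CPM in joint node Treg, against 27 to 53.7 CPM and 7.42 to 14.4 CPM in Tconv. For both genes the Treg ranges overlapped between nodes and the Tconv ranges did not. Of the naive genes 5 passed, all lower (Lef1, Igfbp4, Il6ra, Nsg2 and S1pr1); Igfbp4 differed by -0.92 ± 0.17 and Il6ra by -0.78 ± 0.12.

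**Figure D5:**
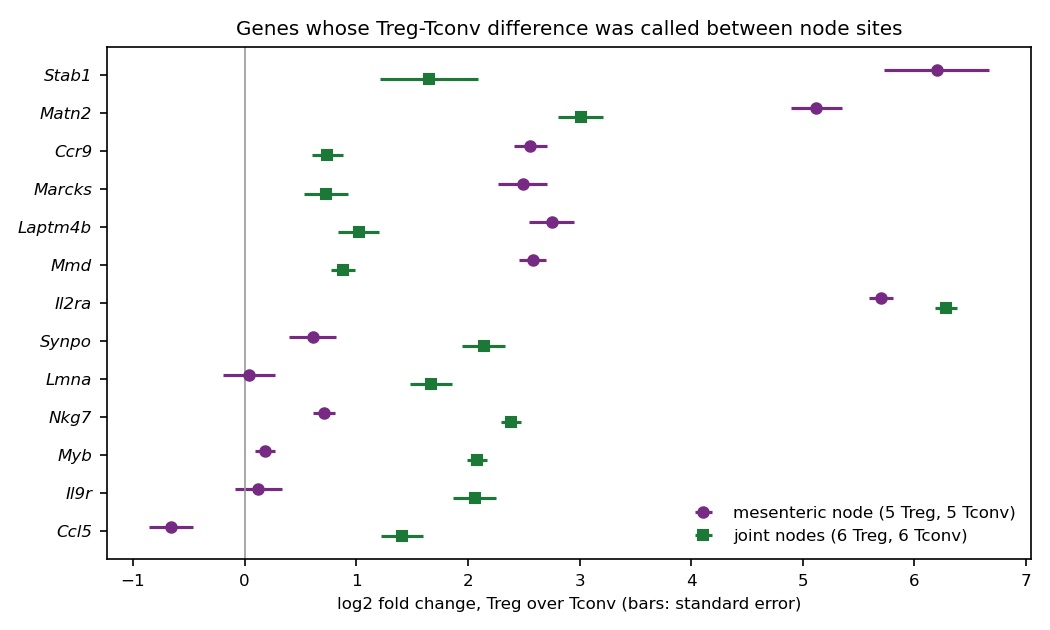
Log2 fold change of Treg over Tconv with its standard error in the mesenteric node (circles, 5 libraries of each cell type) and in the joint nodes (squares, 6 of each) for 13 genes whose difference between the nodes was called. Stab1, Matn2, Ccr9, Marcks, Laptm4b and Mmd lie further right in the mesenteric node, and the other 7 lie further right in the joint nodes, with Ccl5 on opposite sides of 0.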

How the data were processed

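CD4 T cells were sorted as Treg or Tconv, per the labels' protocols, RNA was made into cDNA libraries with a SMART-Seq kit, and reads were sequenced from one end. Cutadapt 1.15 and Bowtie2 2.3.3.1 are named in the submitters' processing notes, and gene annotation was GENCODE M21 (GRCm38). The authors deposited raw counts for 46603 genes and a table of FPKM for 18964 genes; of the deposited FPKM rows, 97.2% hold repeated values and none is 0, so counts were used for every result in the text. Whether counting used strand is not given in the sources used here, so overlapping antisense genes cannot be told apart. The members and gene lists were chosen with earlier results of these data known.

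Counts were scaled by TMM, filtered by filterByExpr and tested with edgeR 4.0.16 (quasi-likelihood, R 4.3.3) in a fit of the 10 mesenteric libraries, or 22 with the joint nodes, with genotypes weighted equally. P-values were adjusted over all genes tested (Benjamini-Hochberg), with a threshold of 0.05. SE is the log2 fold change divided by the square root of F. Changes beyond 2-fold were tested with glmTreat. Named genes were the 12 largest called changes in each direction whose log2 CPM averaged 3 or more and whose cell types did not overlap, 6 in each direction for the differences between genotypes and between nodes, up to 4 called members of each list by adjusted p, and Foxp3, Il2ra, Lrrc32 and Dapl1; predicted, receptor segment and immunoglobulin genes were left out of the first 3. Other list members were named with their values.

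Letters mark 3 independent experiments in the labels. Same-letter Treg and Tconv libraries of a genotype deviated from their group means together, with r between 0.09 and 0.26. For different letters r lay between -0.21 and -0.01. Deviations from a group mean cancel out within the group, so positive same-letter values push the different-letter values to be negative. In TNFdARE the different-letter r of -0.19 is the mirror image of the same-letter 0.19. The different-letter values are therefore not a separate check of the pairing. Alternatives were DESeq2 1.42.0, its size factors, voom weights in limma 3.58.1, no filter, a replicate block, all 42 libraries in the fit, and leaving out each library. The fits were tested on simulated data.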

Additional observations from a re-analysis of the deposited data

Results flagged for a closer look

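The Treg-Tconv log2 difference was tested between TNFdARE and WT, and these genes passed (edgeR, difference TNFdARE minus WT). It was higher in TNFdARE for Lgmn (2.24), Padi2 (2.10), Id2 (1.79), Emb (1.15), Trp53i13 (1.14) and Fam234a (1.11). It was lower for Lrrc32 (-3.51), Coro2a (-2.62), Synpo (-2.47), Foxp3 (-1.89), Sorcs2 (-1.46), Gpr83 (-1.46) and Il2ra (-1.19).

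The same log2 difference was tested between the mesenteric and the joint nodes (mesenteric minus joint). It was higher in the mesenteric node for Stab1 (4.55), Matn2 (2.11), Ccr9 (1.81), Marcks (1.75), Laptm4b (1.73) and Mmd (1.70). It was lower for Ccl5 (-2.08), Il9r (-1.95), Myb (-1.90), Nkg7 (-1.68), Lmna (-1.63), Synpo (-1.53) and Il2ra (-0.57). Groups of 2 or 3 libraries were not searched for a single library far from the others.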

How the results depend on the processing

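The 5720 calls between Treg and Tconv became 4640 to 5550 when 1 library was left out, and 6200 or 6093 with the letter or the library pair as a replicate block. With all 42 libraries in the fit, calls numbered 2437 for this comparison, 1432 in WT, 986 in TNFdARE, 592 beyond 2-fold, 3 for the difference between genotypes and 21 for that between nodes. The difference between genotypes gave 166 calls with DESeq2, 339 with no filter, 62 and 64 with the letter and the library pair as a replicate block, and 6 to 47 without 1 library. That between nodes gave 450 with DESeq2, 697 with no filter, 422 and 430 with those blocks, and 138 to 260 without 1 library. TNFdARE calls ranged from 1967 to 3321 without 1 library; where that left 1 library in a group, it was assumed to vary like the others. The cause of these shifts was not tested. Uncalled differences of either sign were seen without 1 library: from -0.23 to 0.63 for Dapl1 between genotypes, and from -0.18 to 0.20 for Dapl1 and -0.13 to 0.22 for Foxp3 between nodes. For single genes of the main comparison, 4759 values kept direction and call, 267 lost the call and 0 changed direction. Those genes were taken from the calls of the main fit, and the alternatives reuse its libraries, so much of this stability was built in. For the difference between genotypes 220 values stayed the same, 119 lost the call and 1 changed direction. Between nodes these numbers were 1413, 203 and 8.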
